A study of Bos taurus with 6 samples.

Results

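BNIP3, NDUFA4L2, PFKFB3, LDHA and PGK1 are genes of the low-oxygen response and of glycolysis, and their transcripts were followed in agarose cultures of bovine mesenchymal stem cells (MSCs) from bone marrow. The members were all probe sets whose only gene symbol in the platform annotation was 1 of these 5 names. That rule gave 12 of the 24016 probe sets compared, and 5 of the 9155 genes with a probe set of their own. BNIP3, PFKFB3 and LDHA had 3 probe sets each, NDUFA4L2 had 2 and PGK1 had 1. Probe sets of 1 gene share their RNA and are not replicates.

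Each of the 6 conditions was measured on 1 Affymetrix array, so there was no replicate of any condition. All cultures shared the agarose and a chemically defined medium. TGF-beta3 (transforming growth factor beta 3) drives MSCs towards cartilage cells. In its absence constructs were taken at day 3, day 21 and day 42. With TGF-beta3 throughout, free-swelling constructs were taken at day 21 and day 42. The loaded constructs had TGF-beta3 for 21 days free-swelling and then, still with TGF-beta3, 21 more days of dynamic compression, up to day 42. The number of animals, whether their cells were pooled and the oxygen level of the incubator are not given in the sources used here. In such bulk RNA, fewer cells of a type and less RNA per cell cannot be told apart.

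Cells sense oxygen largely through the hypoxia-inducible factors (HIFs). While oxygen is plentiful, EGLN enzymes hydroxylate HIF-1 alpha, the product of HIF1A, and VHL then marks it for destruction, so that this control acts mainly on the protein and not on its transcript. When oxygen is scarce, HIF-1 alpha pairs with ARNT and switches on genes for glucose uptake, glycolysis and vessel growth, and for holding mitochondrial respiration back. Cartilage has no vessels, and its cells rely strongly on glycolysis. All 5 members are known HIF targets. BNIP3 sits on the outer mitochondrial membrane and directs mitochondria to autophagy, and NDUFA4L2, a relative of the respiratory chain subunit NDUFA4, lowers the activity of that chain. PFKFB3 makes fructose 2,6-bisphosphate, the activator of the phosphofructokinase step of glycolysis. PGK1 carries out an ATP-yielding step of glycolysis, and LDHA turns pyruvate into lactate.

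Signals are linear MAS5 intensities, and values of different probe sets were not set against each other. A floor at a signal of 15.1, the 40th percentile of all values, was used: lower values were raised to it, and a fold against such a value is given as at least N-fold. Hybridisation spikes, foreign transcripts added to each hybridisation, had median signals from 2618 to 3727 on 4 arrays. At day 42 with TGF-beta3 they were 7304 without and 5823 with loading. Ribosomal protein transcripts (66 genes) moved likewise, from 4641 to 6570 on those 4 arrays to 13857 and 10115 on the last 2. The ratio of 3 prime to 5 prime GAPDH signal was 1.66, 1.72 and 2.27 at days 3, 21 and 42 without TGF-beta3. With it the ratio was 1.51 at day 21, and at day 42 it was 2.15 unloaded and 1.80 loaded. The cartilage cell markers were summed over 7 of 9 genes, MATN3 and SOX9 having no named probe set here, and the sum ran from 8201 to 10571 on the 3 arrays without TGF-beta3 and from 35147 to 60862 on the 3 with it. All 7 rose. Of 8 marrow stromal markers 7 were tested: CXCL12 fell by 4.23 and VCAM1 fell by 2.51 on the log2 scale, NT5E rose by 1.41 and NES by 2.13, and LEPR was under the floor on all 6 arrays. ENG (0.22), THY1 (-1.77), ALCAM (-1.08) and a dimmer NES probe set (0.74) did not pass. CXCL12 and VCAM1 were under the floor at days 21 and 42 with free-swelling TGF-beta3, and NES at those days without it. Their means thus depend on the floor. All 4 smooth muscle markers tested rose (MYH11 was under the floor throughout), and the sum of the 5 ran from 237 to 786 without and from 1359 to 5205 with TGF-beta3. These calls are from the limma test described with the members, in which 7.10% of all genes tested rose and 7.64% fell. The part of any of these in the results was not tested.

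**Figure D1:**
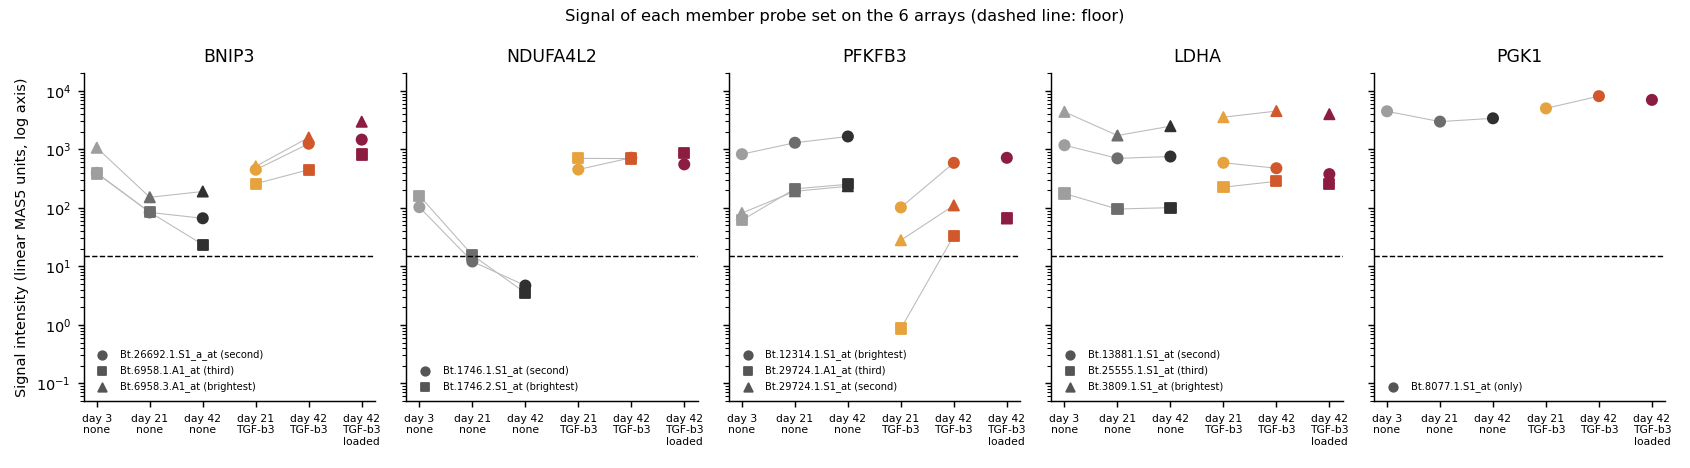
Signal intensity (linear MAS5 units on a log axis) of each of the 12 probe sets on the 6 arrays, 1 panel per gene, 1 point per array. Marker shapes tell the probe sets of a gene apart, lines join days of the same medium, and the dashed line is the floor of 15.1. BNIP3 and NDUFA4L2 were low at days 21 and 42 without TGF-beta3, PFKFB3 was lowest at day 21 with TGF-beta3, and LDHA and PGK1 spanned less than 4-fold.

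The mitochondrial genes BNIP3 and NDUFA4L2 were higher with TGF-beta3 on both days and in each of their 5 probe sets. The brightest BNIP3 probe set read 1064 at day 3, 152 at day 21 and 190 at day 42 without TGF-beta3. With TGF-beta3 it read 513 at day 21, 1596 at day 42 and 2965 after loading. The 3 arrays with TGF-beta3 thus lay above the 2 later arrays without it, while day 3 lay between the day 21 and day 42 arrays with TGF-beta3. TGF-beta3 went with 3.38-fold more signal at day 21 and 8.38-fold more at day 42. The 2 other BNIP3 probe sets went the same way, with 5.37-fold and 18.8-fold for the second and 3.06-fold and 19.1-fold for the third, in order of mean log2 signal. In all 3 the difference was larger at day 42 than at day 21, and the difference between the days was not tested.

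NDUFA4L2 differed most among the members. Its brightest probe set read 162 at day 3, 15.6 at day 21 and 3.53 at day 42 without TGF-beta3, the last under the floor. With TGF-beta3 it read 702 at day 21, 695 at day 42 and 861 after loading. The second read 103, 12.1 and 4.70 at those 3 times without TGF-beta3, and 452, 719 and 554 on the other arrays. Both probe sets were near or under the floor after day 3 without TGF-beta3 and, with it, above every array without it. The brightest differed 45-fold at day 21, and by at least 45.9-fold at day 42. In the second probe set the lower limits were 29.8-fold (day 21) and 47.4-fold (day 42).

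The comparison of TGF-beta3 with none over days 21 and 42 is the only 1 with 2 arrays on each side. It was tested with limma on log2 values, with a term for day, over 14839 probe sets, and a probe set is said to have risen or fallen at a Benjamini-Hochberg adjusted p under 0.05. The fit had 1 residual degree of freedom and a prior worth 49.8, so each p rests mainly on the spread pooled over probe sets. All 12 member probe sets passed the filter on low signal. The fits with an array left out, given below, had 1 array on 1 side and no term for day. A call lost or gained in them does not by itself show that it rested on the array left out. All 3 BNIP3 probe sets rose, by a mean log2 difference between 2.41 ± 0.38 (SE, limma adjusted p = 4.09e-06) and 3.33 ± 0.45 (adjusted p = 1.11e-07). Both NDUFA4L2 probe sets rose, by 5.51 ± 0.60 (limma adjusted p = 4.79e-10) and 5.23 ± 0.63 (adjusted p = 7.53e-09), in which values under the floor had been raised to it, so that these fitted means depend on the floor and are not bounds.

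PFKFB3, the glycolytic regulator, went the other way. Its brightest probe set read 827, 1297 and 1660 at days 3, 21 and 42 without TGF-beta3. With TGF-beta3 it read 102 at day 21, 588 at day 42 and 717 after loading. In this probe set every array with TGF-beta3 lay below every array without it, and the day 21 array with TGF-beta3 was far below the rest. The signal was 12.7-fold lower with TGF-beta3 at day 21 and 2.82-fold lower at day 42. The third probe set read 212 and 253 without TGF-beta3 at days 21 and 42, and 0.866 and 33.4 with it, which is at least 14.0-fold lower and 7.56-fold lower. The second read 192 and 234 without and 28 and 110.3 with TGF-beta3, or 6.87-fold and 2.12-fold lower. In these the day 3 array was not above all arrays with TGF-beta3: the third read 61.6 at day 3 and 68.1 after loading, and the second read 81.5 at day 3 and 65.8 after loading, against its 110.3 at day 42. So all 3 probe sets showed the smaller difference at day 42, the reverse of BNIP3. The difference between days was not tested for PFKFB3 either.

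All 3 PFKFB3 probe sets fell in the limma test, the brightest by 2.58 ± 0.38 on the log2 scale (adjusted p = 8.49e-07). The third fell by 3.36 ± 0.69 (limma adjusted p = 0.000295), a fitted mean that is no bound, since its day 21 value with TGF-beta3 had been raised to the floor. The second fell by 1.93 ± 0.60 (limma adjusted p = 0.023), and its call was lost without either array lacking TGF-beta3 (adjusted p = 0.496 without day 21 and 0.66 without day 42) and without the day 21 array with it (0.138). The third lost its call without either array lacking TGF-beta3 as well (limma adjusted p = 0.109 and 0.168). The summed signal of fat cell markers was also lower with TGF-beta3. PLIN1 had no named probe set here, so 6 of 7 markers entered. The sum was 5064, 12738 and 15417 at days 3, 21 and 42 without TGF-beta3. With TGF-beta3 the sum was 464 at day 21, 924 at day 42 and 750 after loading. Of the fat cell markers 5 of 5 tested fell, beside 7.64% of all genes tested. PPARG, which defines fat cells, read from 193.5 to 771 without TGF-beta3 and from 16.5 to 17.9 with it, close to the floor. Single markers did not all follow the course of PFKFB3. From day 21 to day 42 with TGF-beta3, FABP4 (196 to 434) and LPL (222 to 469) increased like PFKFB3. PPARG (17.9 to 16.5) and CD36 (24.3 to 0.892) did not. Without TGF-beta3, LPL was highest at day 3, at 1854. CEBPA was above the floor only after loading, at 30.8. The sum of all 10 macrophage and blood markers was lower with TGF-beta3 too. It was 296.5, 508 and 625 at days 3, 21 and 42 without TGF-beta3. With TGF-beta3 it was 78.8, 156 and 118 at day 21, day 42 and after loading. These sums used signals not raised to the floor, and most of the 10 markers were under it on each of these 3 arrays. At day 21 with TGF-beta3 only CD14 (17.6) and CSF1R (17.5) were above it. Of the 8 macrophage and blood markers tested, 3 fell (AIF1, CD53 and CD68), beside the same 7.64% of all genes. HBA was under the floor on all arrays. CD14, TYROBP and FCER1G were highest at day 3 (83.9, 37.6 and 51.4) and declined from there without TGF-beta3, unlike PFKFB3. CSF1R had a positive mean difference with TGF-beta3 (0.58, limma adjusted p = 0.507), as did a dimmer CD14 probe set (0.40, adjusted p = 0.66). The part of fat cells or of macrophages and blood cells in the fall of PFKFB3 was not tested.

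LDHA and PGK1, the enzymes, differed less. The brightest LDHA probe set read 4374, 1724 and 2489 at days 3, 21 and 42 without TGF-beta3, and 3547, 4509 and 3991 at day 21, day 42 and after loading with it. The day 3 array was as high as the arrays with TGF-beta3, and the day 21 array without it was lowest. The third was higher with TGF-beta3 with no overlap, at 176, 95.6 and 101 without TGF-beta3 and 226, 284 and 257 with it. The second did not: it read 1177, 702 and 754 without and 590.0, 476 and 378 with TGF-beta3, so its 3 values with TGF-beta3 lay below the other 3. The probe sets of LDHA thus disagreed in direction.

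PGK1 read 4472, 2979 and 3395 at days 3, 21 and 42 without TGF-beta3. With TGF-beta3 it read 5017 at day 21, 8117 at day 42 and 7006 after loading. The arms did not overlap, but the day 3 array lay close to the day 21 array with TGF-beta3. The difference with TGF-beta3 was 1.68-fold at day 21 and 2.39-fold at day 42, and for the brightest LDHA probe set it was 2.06-fold and 1.81-fold. No LDHA or PGK1 probe set passed the limma test. The mean log2 difference was 0.95 ± 0.36 (limma adjusted p = 0.0713) for the brightest LDHA probe set, 1.37 ± 0.50 (0.0611) for the third and -0.46 ± 0.35 (0.432) for the second. For PGK1 it was 1.0 ± 0.39 (limma adjusted p = 0.0754). When the day 21 array with TGF-beta3 was left out, PGK1 (limma adjusted p = 0.0011), the brightest (0.00489) and the third LDHA probe set (0.0221) passed. Each of these 3 probe sets also passed in 3 other alternatives. PGK1 did so when the loaded array replaced the unloaded array (limma adjusted p = 0.00985) or joined it (0.0392), and with the floor value as a pseudocount (0.049). The brightest LDHA probe set did so with the loaded array as replacement (limma adjusted p = 0.0171) or added (0.0482), and with quantile normalization (0.0234). The third did so with the loaded array added (limma adjusted p = 0.0445), the pseudocount (0.0422) and the floor at the 25th percentile (0.047).

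In all, 8 of the 12 member probe sets passed, 5 of them rose and 3 fell, where 13.2% of all probe sets tested passed, 5.84% rising and 7.33% falling. Leaving out the day 42 array without TGF-beta3 left 5 of the 8. By size, counting 1 probe set per gene (the brightest), 3 of the 5 genes were at least 2-fold higher and 1 was at least 2-fold lower at day 21, namely BNIP3, NDUFA4L2 and LDHA against PFKFB3. At day 21, 28.2% of all genes compared differed by that much in either direction. At day 42 PGK1 took the place of LDHA among the 3 that were higher, and 40.8% of all genes differed 2-fold. The 2 days share no array.

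The scaling of the arrays decided the direction for PGK1 and the brightest LDHA probe set at day 42, but not for the other 3 genes. The spikes were log2 1.39 and the ribosomal protein genes log2 1.23 higher on the day 42 array with TGF-beta3 than on that without it. When each array was centred on its spikes, the median of all probe sets at day 42 moved from 0.22 to -1.0. PGK1 then went from 1.26 to -0.06 and the brightest LDHA probe set from 0.86 to -0.46 at day 42, still above that median. BNIP3 kept 1.75 to 2.94, NDUFA4L2 4.71 to 4.76, and PFKFB3 lay between -2.41 and -4.24. Quantile normalization gave 0.56 for PGK1 and 0.46 for the brightest LDHA probe set. In the limma test with spike centring, 225 probe sets rose and 1302 fell, against 866 and 1088 with the authors' scaling, 981 and 1213 with quantile normalization, and 488 and 1008 with median centring. Among the members 3 rose and 3 fell with spike centring, the third and the brightest of BNIP3 no longer passing (limma adjusted p = 0.105 and 0.26).

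**Figure D2:**
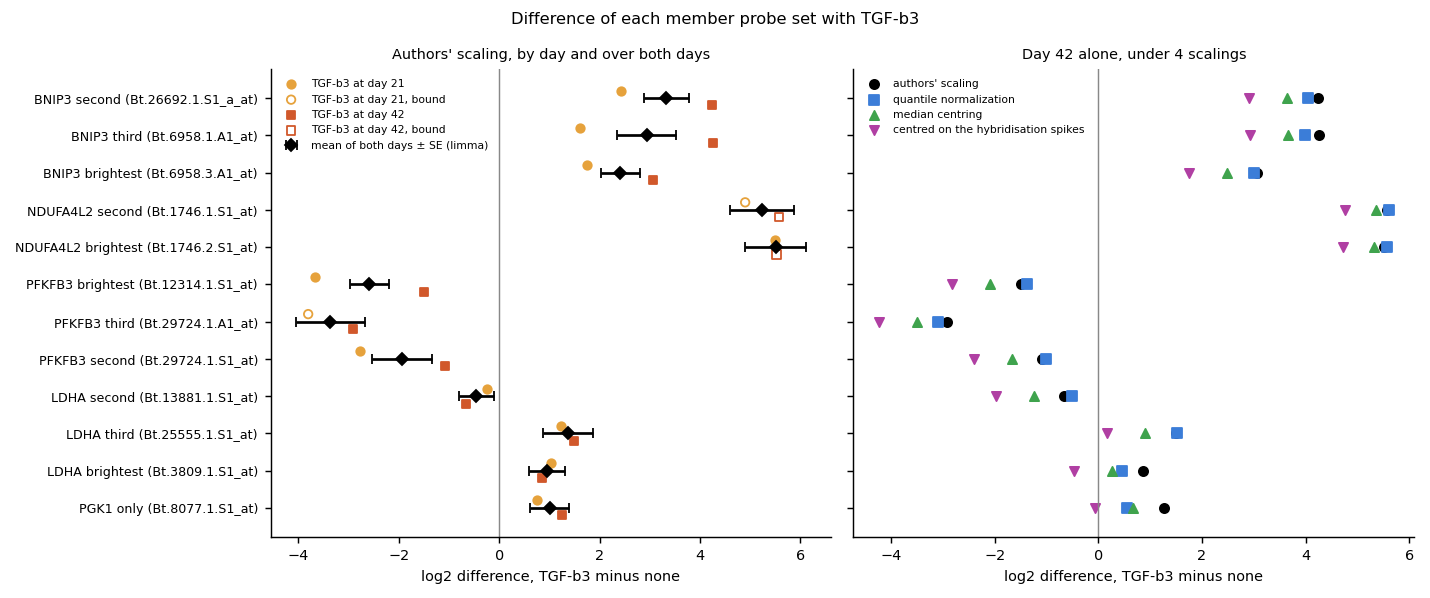
Log2 difference of each member probe set, with TGF-beta3 minus without. On the left, day 21 and day 42 (1 array per side, open symbols are bounds) and the limma mean of both days with its standard error; on the right, day 42 under 4 scalings of the arrays. BNIP3 and NDUFA4L2 stayed above 0 and PFKFB3 below 0 under all 4, while PGK1 and the brightest LDHA probe set crossed 0 when arrays were centred on the spikes.

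Without TGF-beta3, the members that rose with TGF-beta3 were already lower at day 21 than at day 3. This and the following comparisons set 1 array against 1 and have no p-value, so a gene counts as different by size alone, at 2-fold. The day 21 array without TGF-beta3 also serves the day 21 comparison with TGF-beta3 and the limma test. A low or high value on it enters all of these. BNIP3 was 7.01-fold lower at day 21 than at day 3 in its brightest probe set and 4.76-fold and 4.58-fold lower in the others. NDUFA4L2 was 10.4-fold lower in its brightest probe set and at least 6.79-fold lower in the second. LDHA was 2.54-fold lower in its brightest probe set, but 1.84-fold and 1.68-fold in the 2 others. PGK1 was 1.5-fold lower. PFKFB3 was 1.57-fold higher in its brightest probe set and 3.44-fold and 2.36-fold higher in the third and the second. So 3 of 5 genes were at least 2-fold lower and none higher by the brightest probe set, where 4.72% of all genes compared were lower by that much. Spikes and ribosomal genes differed by log2 -0.45 and -0.37 in the same comparison. With spike centring BNIP3 still lay between -1.68 and -2.30 and NDUFA4L2 at -2.87 and -2.58, but PGK1 was at -0.08 and PFKFB3 at 1.16.

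From day 21 to day 42 without TGF-beta3, none of the 5 genes differed 2-fold by its brightest probe set, where 9.24% of genes did. BNIP3 differed by log2 0.33, PFKFB3 by 0.36, LDHA by 0.53 and PGK1 by 0.19. NDUFA4L2 was near the floor on the first array and under it on the second, so its decline could not be followed further. The third BNIP3 probe set went against the brightest, with 3.59-fold lower signal at day 42.

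With TGF-beta3, BNIP3 and PFKFB3 were the 2 genes at least 2-fold higher at day 42 than at day 21, where 19.5% of genes were, and none was lower. PFKFB3 was 5.77-fold higher in its brightest probe set, 3.94-fold higher in the second and at least 2.21-fold higher in the third. BNIP3 was 3.11-fold higher in its brightest probe set, 2.79-fold in the second and 1.73-fold in the third. NDUFA4L2 hardly differed, at log2 -0.01 and 0.67 in its 2 probe sets, and PGK1 differed by 0.69. Here the spikes were log2 1.24 and the ribosomal genes 1.03 higher, and spike centring brought the median of all probe sets from 0.11 to -1.0. Under it the brightest PFKFB3 probe set was still past 2-fold, at 1.34, but BNIP3 was not: its brightest went from 1.64 to 0.45 and its second from 1.48 to 0.29. The third turned to -0.39, PGK1 to -0.49 and the brightest LDHA probe set to -0.84, and the brightest of NDUFA4L2 went to -1.20.

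Dynamic compression was compared with free swelling at day 42, both with TGF-beta3. None of the 5 genes differed 2-fold by its brightest probe set, where 15.6% of genes did. BNIP3 came closest, at 2965 loaded against 1596 unloaded, or 1.86-fold higher, with 1.83-fold in the third probe set and 1.17-fold in the second. NDUFA4L2 was at log2 0.31 and -0.38 in its probe sets, LDHA at -0.18 and PGK1 at -0.21 in their brightest, and PFKFB3 at 0.29. The 2 dimmer PFKFB3 probe sets disagreed, one 2.04-fold higher and the other 1.67-fold lower. The spikes differed by log2 -0.39 on the loaded array, and centring on them put BNIP3 past 2-fold, at 1.20 in the third and 1.22 in the brightest probe set, and turned LDHA and PGK1 to 0.15 and 0.12.

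The unloaded day 42 array with TGF-beta3 serves the day 42 comparison, the comparison of days with TGF-beta3 and the loading comparison, so a high or low value there enters all 3. Set against day 21 with TGF-beta3 instead, the loaded array showed BNIP3 5.78-fold and PFKFB3 7.04-fold higher in the brightest probe sets, where 15.3% of genes were at least 2-fold higher. NDUFA4L2 was 1.23-fold higher in both of its probe sets, LDHA 1.13-fold and PGK1 1.40-fold higher. The spikes were log2 0.83 and the ribosomal genes 0.56 higher on the loaded array. With spike centring BNIP3 was at 1.67 and PFKFB3 at 1.96 in the brightest probe sets, but both NDUFA4L2 probe sets were at -0.56, the brightest of LDHA at -0.69 and PGK1 at -0.38. This comparison shares the day 21 array with that of unloaded constructs.

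**Figure D3:**
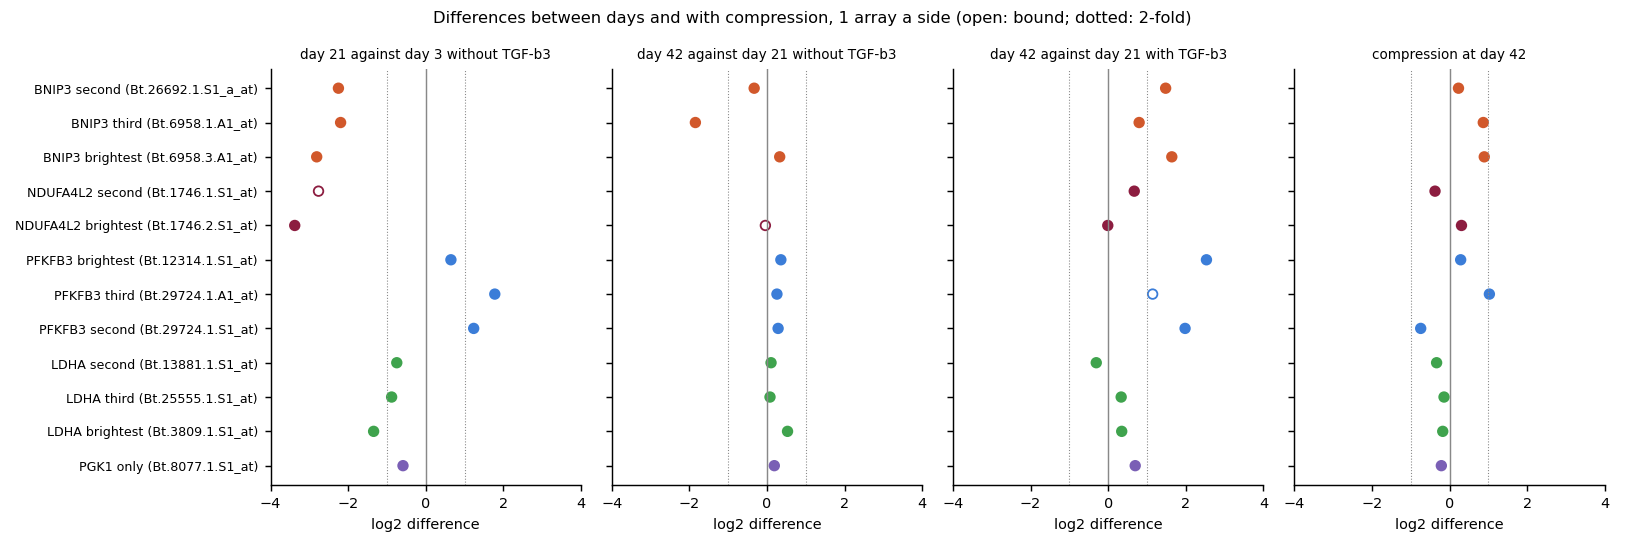
Log2 difference of each member probe set for 4 comparisons with 1 array per side, coloured by gene; dotted lines mark 2-fold and open symbols are bounds. From day 3 to day 21 without TGF-beta3, BNIP3 and NDUFA4L2 lay beyond 2-fold lower and PFKFB3 above 0.

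In order of level over the conditions, the brightest BNIP3 probe set ran from loaded through day 42 with TGF-beta3, day 3, day 21 with TGF-beta3 and day 42 without down to day 21 without TGF-beta3. Only day 3 against day 21 with TGF-beta3, and the latter against day 42 without, were neighbours more than 2-fold apart. In the brightest NDUFA4L2 probe set the 3 arrays with TGF-beta3 lay within 2-fold of their neighbours, day 3 was more than 2-fold below them and day 21 without TGF-beta3 more than 2-fold below day 3. In the brightest and the second PFKFB3 probe set the only gap over 2-fold between neighbours was that to the lowest array, day 21 with TGF-beta3. The third also had a gap from day 21 without TGF-beta3 (212) to the loaded array (68.1). LDHA and PGK1 had no such gap, and their highest array exceeded their lowest by 2.61-fold and 2.73-fold in the brightest probe sets.

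Among close relatives of the members none passed the limma test. BNIP3L, which also directs mitochondria to autophagy and is a known HIF target, read from 1684 to 2632 over the 6 arrays, with a mean difference of 0.02 ± 0.35 with TGF-beta3 (limma adjusted p = 0.977). NDUFA4, the subunit that NDUFA4L2 resembles, read from 2254 to 3899, with a mean difference of 0.10 ± 0.36 (limma adjusted p = 0.903). Both signs turned under other scalings, so neither has a settled direction. PFKFB4, another maker of fructose 2,6-bisphosphate, was under the floor on all 6 arrays, with signals from 1.03 to 7.61. LDHB, the other lactate dehydrogenase subunit, was at -0.86 ± 0.37 (limma adjusted p = 0.114), opposite in sign to the brightest LDHA probe set.

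Of the HIF factors and oxygen sensors, 7 genes were tested, of which 2 rose and 2 fell, where 7.10% of all genes tested rose and 7.64% fell. HIF1A read 1720, 1367 and 1308 at days 3, 21 and 42 without TGF-beta3, and 3160, 5293 and 4108 at day 21, day 42 and after loading with it. All 3 arrays with TGF-beta3 were above the others, and HIF1A rose by 1.61 ± 0.36 (limma adjusted p = 0.000815), but the call was lost with spike centring (0.81, adjusted p = 0.468). EGLN3, an oxygen-sensing hydroxylase that is itself a HIF target, read 160, 11.2 and 1.89 without and 73.7, 77.1 and 116 with TGF-beta3. Without TGF-beta3 it was high at day 3 and under the floor later, and it rose by 2.32 ± 0.67 (limma adjusted p = 0.0129), a fitted mean that is no bound. EPAS1, which encodes HIF-2 alpha, read from 633 to 1147 without and from 206 to 232 with TGF-beta3 and fell by 2.42 ± 0.36 (limma adjusted p = 1.07e-06). CITED2, a HIF-induced protein that competes with HIF-1 alpha for its coactivator, fell by 1.77 ± 0.35 (limma adjusted p = 0.000204). The second EPAS1 probe set was at -1.73 and did not pass (limma adjusted p = 0.0739). When either array lacking TGF-beta3 was left out, fewer genes of this list passed, and fewer of all probe sets did too.

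Among 20 tested genes of a list of known HIF targets that left out the 5 members, 8 rose and 1 fell. Of all genes tested, 7.10% rose and 7.64% fell. The median difference of the 20 targets was 0.82, beside 0.14 over all 6842 genes tested. VEGFA, the vessel growth factor, read 289.5, 95.6 and 127.5 at days 3, 21 and 42 without TGF-beta3 and 1650, 1903 and 2670 at day 21, day 42 and after loading with it, the pattern of high day 3 and lower day 21 seen in BNIP3 and NDUFA4L2. It rose by 4.01 ± 0.36 (limma adjusted p = 1.84e-12), and its second probe set by 3.89. P4HA2 (2.65) and P4HA1 (2.30), subunits of the collagen prolyl hydroxylase, and PLOD2 (1.46), a collagen lysyl hydroxylase, are part of collagen synthesis as well as HIF targets. The others that rose were EGLN3, ERO1A (2.25), an oxidase of protein folding, SLC2A1 (1.94) and BHLHE40 (1.68), while INSIG2, which restrains cholesterol synthesis, fell by 1.15 (limma adjusted p = 0.0167). PLOD1, another collagen lysyl hydroxylase, was at -0.34 in its brightest probe set and did not pass (limma adjusted p = 0.577), while its dimmer one rose by 2.54 (adjusted p = 6.45e-07). With spike centring 2 of the 20 passed, where 1527 of 15566 probe sets did. When either array lacking TGF-beta3 was left out, fewer of the 20 passed, and fewer of all probe sets did too. From day 3 to day 21 without TGF-beta3, 6 of 20 targets were at least 2-fold lower and 1 was higher, where 11.7% of genes differed 2-fold either way. Under compression 1 of 22 was higher and none lower, where 15.6% of all genes compared differed 2-fold either way.

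Of 15 glycolytic enzymes tested, LDHA and PGK1 included, 5 rose and none fell, with a median difference of 1.0. Of all genes tested, 7.10% rose and 7.64% fell. Those that rose were ALDOC (3.04 ± 0.72, limma adjusted p = 0.00196), ENO1 (1.41 ± 0.34, 0.00248), GAPDH (1.37 ± 0.37, 0.0072), TPI1 (1.14, 0.0209) and PKM (1.02, 0.0434). PGK1 and LDHA thus lay near the middle of their pathway, just short of the threshold that GAPDH, the step before PGK1, passed. HK1, GPI, ALDOA and LDHB had negative means and did not pass. ALDOC read 19.2 and 11.5 at days 21 and 42 without TGF-beta3, the last under the floor, so its fitted mean is no bound. The count depended on the processing: fits with an array left out gave other counts, and with spike centring 1 rose and 1 fell. Of all 15566 probe sets tested with spike centring, 225 rose and 1302 fell. From day 3 to day 21 without TGF-beta3, 3 of 15 were at least 2-fold lower, namely GAPDH, LDHA and PFKP. Of all genes compared, 4.72% were.

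On the transport side 6 genes were tested, of which 2 rose and 1 fell, beside 7.10% and 7.64% of all genes tested. SLC2A1 (GLUT1), the glucose carrier of many cell types, read from 445 to 490 without and from 1523 to 2808 with TGF-beta3, and rose by 1.94 ± 0.34 (limma adjusted p = 2.61e-05). SLC16A3 (MCT4), which exports the lactate that LDHA makes, rose by 3.54 ± 0.53 in its brightest probe set (limma adjusted p = 1.16e-06), but its 2 others were at 1.40 and 0.45 and did not pass (adjusted p = 0.149 and 0.615). SLC2A4 (GLUT4), the insulin-dependent carrier of muscle and fat, fell by 2.08 ± 0.65 (limma adjusted p = 0.0239), again no bound, with 57.9 and 70.4 at days 21 and 42 without TGF-beta3 and values under the floor on the 4 other arrays. Between days 3 and 21 without TGF-beta3, SLC2A1 differed by 1.02-fold, where BNIP3 was 7.01-fold lower.

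Of 14 genes of pyruvate use and the pentose phosphate path, none rose and 5 fell, with a median of -0.79. For this and the other lists of this paragraph, the shares of all genes tested were 7.10% rising and 7.64% falling. PDK4 is a kinase that inhibits pyruvate dehydrogenase and marks the use of fat as fuel. It read 46.8, 1280 and 1948 at days 3, 21 and 42 without TGF-beta3 and 5.33, 18.2 and 11.3 with it. It was high only at the later days without TGF-beta3 and fell by 6.57 ± 0.50 (limma adjusted p = 2.74e-15), no bound either, its day 21 value with TGF-beta3 having been raised to the floor. TALDO1, PDHA1, PDHB and MPC2 fell by 1.35, 1.34, 1.13 and 1.0 in their brightest probe sets (limma adjusted p from 0.00351 to 0.0463). Of the 5, PDK4 alone passed without the day 21 or the day 42 array lacking TGF-beta3. In the list of fructose 2,6-bisphosphate and glycogen genes PFKFB3 was the only 1 of 7 to pass, in the BNIP3 and mitophagy list BNIP3 was the only 1 of 13, and in the NDUFA4 and cytochrome oxidase list NDUFA4L2 was the only 1 of 11, each gene counted by its brightest probe set. A dimmer BCL2 probe set, 1 of 5, also fell, by 1.85 (limma adjusted p = 0.0461). So did a dimmer DLAT probe set, by 1.57 (limma adjusted p = 0.0113), though the brightest of DLAT did not pass. The dimmer PDHA1 probe sets (limma adjusted p from 0.359 to 0.523) and the dimmer tested PDHB probe set (0.102) did not pass.

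**Figure D4:**
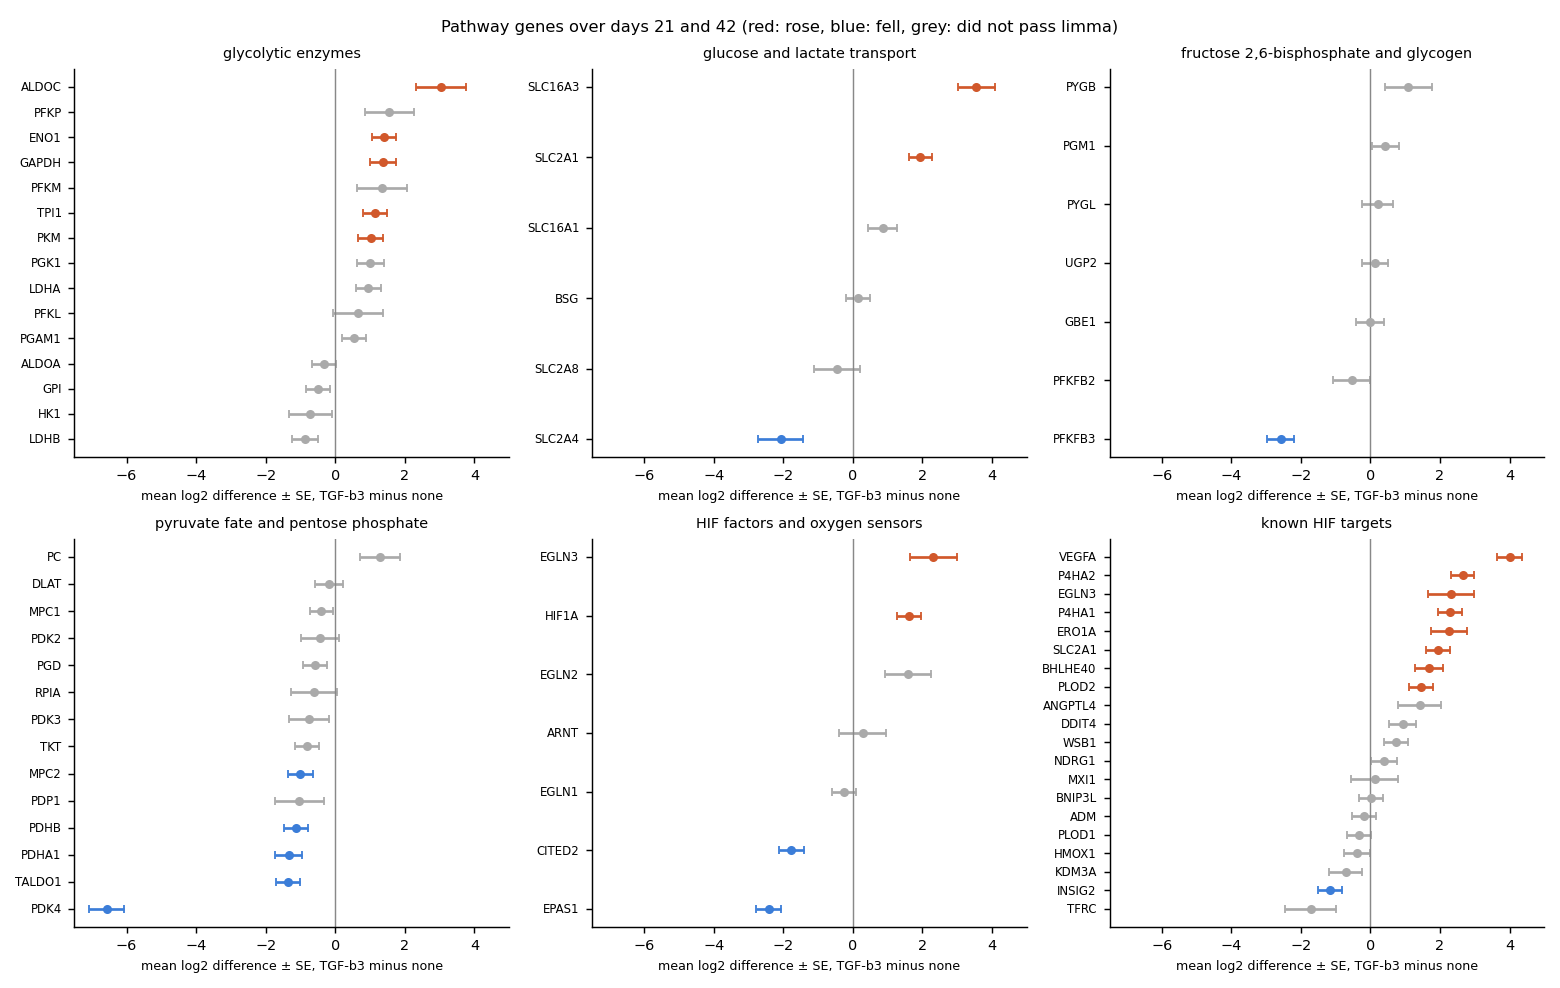
Mean log2 difference with its standard error (limma, days 21 and 42, with TGF-beta3 minus without) for the tested genes of 6 pathway lists, 1 probe set per gene; red genes rose, blue fell and grey did not pass. VEGFA rose most among the HIF targets and PDK4 fell most in the pyruvate list, while PGK1 and LDHA lay among the grey genes in the middle of the glycolytic list.

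Likeness of pattern was measured over the 6 arrays as the root mean square difference of log2 values, each gene centred on its own mean, among 5415 genes above the floor on every array (5416 for NDUFA4L2). Closest to BNIP3 were CHI3L1 (0.54), NEK9 (0.59) and ING1 (0.63), against a median of 1.58 over all these genes. CHI3L1 read 515, 182 and 181 without and 800.0, 1896 and 3678 with TGF-beta3, so it too was highest after loading. Closest to NDUFA4L2 were BOLA-DQB1 (0.54), whose probe set may bind several genes of its family, VEGFA (0.78) and ANXA8L1 (0.85), against a median of 2.49. Closest to PFKFB3 were SESN1 (0.32), HLF (0.33) and PPARGC1A (0.39), against 1.40, and all 3 were lowest at day 21 with TGF-beta3. LDHA was closest to DENND10 (0.12), FARP1 (0.13) and TCTN1 (0.14), against 0.66. PGK1 was closest to CALM (0.084), H3-3B (0.085) and the ribosomal protein gene RPL27 (0.093), against 0.64. PGK1 lay 0.16 from the median of the spikes and 0.14 from that of the ribosomal protein genes, nearer than LDHA (0.36 and 0.37), BNIP3 (1.12 and 1.16), PFKFB3 (1.46 and 1.5) or NDUFA4L2 (2.14 and 2.13). Among the members, LDHA and PGK1 were most alike, at 0.29, and NDUFA4L2 and PFKFB3 least, at 3.54.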

How the data were processed

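Total RNA of 6 agarose cultures was amplified by ribo-SPIA and hybridised to Affymetrix bovine arrays, per the labels' protocols. The authors deposited a linear signal intensity for each probe set, computed by MAS5 according to the submitters' processing notes (version number not given in the sources used here). Trimmed at both tails, the mean was 150 on each array, and the authors' scaling was kept. Of 24128 probe sets, 112 controls were left out; 13292 had 1 gene name from the platform annotation, 86 had several and were not named, and 13263 names were found by Entrez identifier in RefSeq with 0 differing symbols.

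Values under the floor (the 40th percentile) were raised to it before log2. Sums of cell type markers used the signals as they were, not raised to the floor. A probe set entered a 1-against-1 comparison if above the floor on at least 1 array, and the test if above it on at least 2 of 4. The test was limma 3.58.1 in R 4.3.3 (variance trend, day as a term), checked on simulated data. Tables used pandas 2.3.3 and numpy 2.4.6 in Python 3.11.15, and plots matplotlib 3.10.9. No label says that cultures of different days had separate donors, so p-values may measure technical spread only. Precision is limited by the number of arrays. Fits with an array left out had 1 array on 1 side and no term for day.

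The 5 members, the gene lists and the tests were chosen with earlier results of these data known, and support nothing beyond a description. Named were all member probe sets, up to 3 genes per direction of each list that passed, 9 genes whatever their values, and the 3 genes most like each member. Some genes were named after their values were seen. These were other members of lists that passed, LDHB, the enzymes with negative means, BCL2, DLAT, PLOD1 and the stromal, fat cell and macrophage markers. Alternatives were quantile normalization, median centring, spike centring, a floor at the 25th or the 60th percentile, the floor value added as a pseudocount, sizes of 1.5-fold and 3-fold, the median over probe sets of each gene, 1 probe set per gene, no trend, no day term, no filter, the loaded array in place of or beside the unloaded one, and each array left out.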

Additional observations from a re-analysis of the deposited data

How the results depend on the processing

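With 1 array per condition, the spread between cultures is not known, and differences near 2-fold or values near the floor are the least certain. With TGF-beta3 8 of the 12 member probe sets were called, against 4 with no day term, 5 to 9 with an array left out, 3 of 5 with 1 probe set per gene, and up to 11 elsewhere (loaded array added). Of the 90 list genes tested, 27 were called, against 12 with spike centring, 14 with no trend, 10 with no day term and 10 to 38 with an array left out. Over all probe sets 1954 were called, against 1030 with no trend, 570 with no day term, 1113 genes with 1 probe set per gene and 340 to 3773 with an array left out. With no filter on low signal limma called 0 members, 0 list genes and 0 probe sets (6, 25 and 2113 at an unadjusted p under 0.05), since 6088 probe sets were then at the floor on all 4 arrays and the prior fell to 0.87 degrees of freedom. Both NDUFA4L2 probe sets and the second BNIP3 probe set kept their call and direction in every other alternative that tested them. The second NDUFA4L2 probe set failed the filter, and was not tested, when either array with TGF-beta3 was left out. The brightest PFKFB3 probe set lost its call with no day term (limma adjusted p = 0.123). So did the second PFKFB3 probe set and the brightest and the third of BNIP3. No member changed sign in the test.

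BNIP3L turned from 0.02 to -0.14 with quantile normalization, -0.22 with median and -0.79 with spike centring, -0.078 with the loaded array in place, and lay between -0.28 and 0.323 with an array left out. NDUFA4 turned from 0.10 to -0.21, -0.15, -0.71 and -0.20 under the same 4, -0.052 with the loaded array added, and -0.24 to 0.431 with an array left out. The cause was not tested. By size, 2 of the 4 genes past 2-fold at day 42 with TGF-beta3 passed 3-fold, 1 gene (BNIP3) passed with compression under spike centring or at 1.5-fold, all 5 passed 1.5-fold from day 3 to day 21, and 1 gene passed from day 21 to day 42 without TGF-beta3 with the floor at the 25th percentile.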
